A study of Mus musculus with 10 samples.

Results

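Heme synthesis was followed through 9 genes, Alas1, Alas2, Alad, Uros, Urod, Cpox, Ppox, Fech and Slc25a38, taken by symbol from a list that does not hold every enzyme of the pathway. All 9 have a row among the 55359 genes of the deposited table and were among the 18742 tested. RNA was sequenced from lineage-negative (Lin-) bone marrow cells, marrow depleted of cells that carry surface markers of mature blood lineages, in 5 libraries of Dhx9f/f mice (WT) and 5 of Dhx9f/f;MX1 mice (cKO). In both groups the Dhx9 alleles are floxed. In the cKO mice, Cre recombinase is driven by the Mx1 promoter, which responds to interferon in many cell types and not in blood cells alone, and is induced by injection of poly(I:C), an RNA mimic. Another label field calls these samples "Dhx9 knock down". Age is not given for these mice, and whether the sequenced WT mice also received poly(I:C) is not stated, so an effect of poly(I:C) and one of the genotype cannot be told apart. Nor do the labels say that each library came from a separate mouse, so p-values measure the spread between these libraries. Libraries held 13794355 to 18592522 fragments, as read from the deposited values.

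The groups are named by their labels throughout, because the targeted gene goes against them. Dhx9 was at 130.82 to 156.49 FPKM (fragments scaled by gene length and library depth) in the cKO-labelled libraries and at 65.43 to 72.42 FPKM in WT (higher under the cKO label, adjusted p = 1.39e-05, limma). Every direction below rests on those labels. Xist, the transcript of the inactive X chromosome, was above 1 FPKM in WT libraries 3, 4 and 5 and in no other library. The sex of the mice may therefore differ between the groups and cannot be fully told apart from the label. A fit with Xist as a covariate takes its group difference from WT 1 and WT 2 against the cKO-labelled libraries. WT 3 had the highest mean log2 level of 17 erythroid marker genes among the WT libraries, 6.60 against 5.56 to 6.01 in the other 4, and also the highest level of 7 of the 9 heme synthesis genes.

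Heme is an iron-containing porphyrin that carries oxygen in hemoglobin and electrons or oxygen in many enzymes. Its synthesis starts in mitochondria, where glycine and succinyl-CoA are joined into aminolevulinic acid (ALA), continues in the cytosol and ends in mitochondria with the insertion of iron. The opening step is catalysed by a pair of isozymes. ALAS1 serves all cells and is held down by heme itself, and ALAS2 serves developing red cells, which make most of the body's heme. Alas2 is X-linked and a known target of the erythroid factor GATA1, as are other genes of the pathway.

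Promoter sequences are shown for the isozyme pair, whose levels went opposite ways, for Cpox, which had the next largest rise after Alas2, and for both annotated starts of Uros. Each runs 5′ to 3′ from 250 bases before to 50 after a RefSeq gene start, was taken from the RefSeq promoter table (built on GRCm38.p6) and was placed on GRCm39 by exact match. Capitals mark GATA words (the word AGATAA, the word AGATAG, the word TGATAA and the word TGATAG) and the KLF word CCNCNCCC, searched on both strands, with overlapping matches counted separately. The windows lie at chr9:106124880-106125179, minus strand for Alas1, the more downstream of its annotated starts, chrX:149330163-149330462, plus strand for Alas2, and chr16:58490321-58490620, plus strand for Cpox. Those of Uros lie at chr7:133310975-133311274, minus strand for the upstream start and chr7:133304180-133304479, minus strand for the downstream start.
Alas1: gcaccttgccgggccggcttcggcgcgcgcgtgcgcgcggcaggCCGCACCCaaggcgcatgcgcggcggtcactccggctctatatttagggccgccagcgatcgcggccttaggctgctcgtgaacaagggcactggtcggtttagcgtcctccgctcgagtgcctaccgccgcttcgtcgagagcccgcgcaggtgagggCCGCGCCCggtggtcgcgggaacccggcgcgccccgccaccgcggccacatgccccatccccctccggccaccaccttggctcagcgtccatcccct
Alas2: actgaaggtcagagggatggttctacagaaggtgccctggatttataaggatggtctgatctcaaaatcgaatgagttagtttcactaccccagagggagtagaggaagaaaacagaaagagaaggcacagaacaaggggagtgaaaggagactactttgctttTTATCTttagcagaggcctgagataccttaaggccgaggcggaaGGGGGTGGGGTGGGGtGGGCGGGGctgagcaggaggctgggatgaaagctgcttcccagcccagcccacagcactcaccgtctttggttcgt
Cpox: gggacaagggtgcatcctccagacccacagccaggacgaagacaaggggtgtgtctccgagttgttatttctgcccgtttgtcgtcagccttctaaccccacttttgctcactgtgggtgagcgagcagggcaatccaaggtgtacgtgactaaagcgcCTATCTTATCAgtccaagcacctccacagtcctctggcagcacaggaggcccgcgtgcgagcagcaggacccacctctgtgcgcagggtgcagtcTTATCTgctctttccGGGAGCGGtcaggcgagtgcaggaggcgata
Uros upstream start: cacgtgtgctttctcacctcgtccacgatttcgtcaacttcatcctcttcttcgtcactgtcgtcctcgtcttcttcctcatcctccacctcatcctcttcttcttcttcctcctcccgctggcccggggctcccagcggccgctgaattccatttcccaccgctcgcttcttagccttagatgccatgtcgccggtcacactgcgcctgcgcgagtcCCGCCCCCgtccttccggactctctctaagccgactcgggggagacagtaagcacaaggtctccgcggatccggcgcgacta
Uros downstream start: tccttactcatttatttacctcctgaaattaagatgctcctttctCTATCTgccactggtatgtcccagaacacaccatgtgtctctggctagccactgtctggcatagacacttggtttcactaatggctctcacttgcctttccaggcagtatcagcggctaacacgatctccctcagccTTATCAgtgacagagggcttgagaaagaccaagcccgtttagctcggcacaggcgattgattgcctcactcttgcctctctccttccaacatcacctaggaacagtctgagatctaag

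A GATA word was present in 3 of the 11 windows read (27.3%), those of Alas2, Cpox and the downstream start of Uros, and in 29.8% of the 32851 windows of all genes. Counted by gene, these are 3 of 8 (37.5%), against 33.0% of all genes with a window. That of Alas2 lies on the opposite strand from 86 to 81 bases before the start. Cpox holds 3 GATA words, of which the TGATAA word and the upstream AGATAG word share a base and the AGATAA word begins 5 bases into the transcript. In Uros, the downstream start has 2 GATA words and no KLF word, and the upstream start 1 KLF word and no GATA word. The KLF word was found in 10 of the 11 windows, against 49.5% of all windows. Counted by gene it was in all 8, against 51.9% of all genes. It is rich in C, and GC content was 45.3% to 73.3% in the 11 windows, against a median of 52.7% over all windows. The part of GC content in these shares was not tested. Both windows of Alas1 overlap and share a match, as do both of Alad. Alas2 has 4 matches of the KLF word in a G-rich run between 42 and 19 bases before its start. Such matches are letters in a window and show no binding, and a gene-level value does not say which start of Uros was used.

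At the opening step, the isozymes changed in opposite directions. Alas1 was lower and Alas2 higher in the cKO-labelled libraries, with no overlap between the groups for either gene. Alas1 (ENSMUSG00000032786; GRCm39 chromosome 9 from 106110642 to 106135734) was at 34.35, 26.42, 27.38, 32.35 and 33.26 FPKM across WT 1 to 5 and at 13.06, 5.51, 10.64, 4.12 and 13.2 FPKM in the cKO-labelled libraries. Its mean went from 30.8 ± 3.603 to 9.31 ± 4.25 FPKM (SD, n = 5 each). On the log2(FPKM + 0.1) scale, used for all fold changes here, it fell by 1.85 (standard error, SE, 0.304, adjusted p = 6.79e-04, limma with Benjamini-Hochberg adjustment), a 3.61-fold fall. Within the cKO-labelled libraries, numbers 2 and 4 were the lowest. Because these are bulk samples, fewer cells of a type and less RNA per cell cannot be told apart.

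Alas2 (ENSMUSG00000025270; chromosome X from 149330371 to 149353634) was at 11.54, 5.27, 18.6, 6.49 and 4.98 FPKM across WT 1 to 5 and at 61.16, 60.25, 51.75, 60.54 and 35.08 FPKM in the cKO-labelled libraries. The spread in WT was wide, with WT 3 highest and WT 1 next, but even cKO 5, the lowest of its label, lay above WT 3. The mean went from 9.38 ± 5.79 to 53.8 ± 11.1 FPKM (SD, 5 libraries each), and the log2 fold change was 2.67 (SE 0.341, adjusted p = 1.85e-04, limma), a 6.37-fold rise. With Xist above 1 FPKM as a covariate the log2 fold change of this X-linked gene was 2.74 (adjusted p = 0.00355, limma), and without WT 3 it was 2.96.

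Because both isozymes make ALA, their shares were compared within each library, where scaling between libraries cancels. Alas2 made up 25.1%, 16.6%, 40.5%, 16.7% and 13.0% of the summed ALA synthase FPKM in WT libraries 1 to 5. In the cKO-labelled libraries it made up 82.4%, 91.6%, 82.9%, 93.6% and 72.7%. By FPKM, Alas1 was thus the higher isozyme in all 5 WT libraries and Alas2 in all 5 labelled cKO. These shares, and the sum below, also depend on the gene lengths used, which are not given in the sources used here. Annotated exons cover 9867 bp for Alas1 and 2686 bp for Alas2, so the order within a library could change with the length used. The mean log2 ratio of Alas2 to Alas1 was -1.89 ± 0.853 in WT and 2.63 ± 0.989 in the cKO-labelled libraries (SD, n = 5 each), a difference of 4.52 (exact permutation test, two-sided, p = 0.00794, the smallest that 5 against 5 allow). The sum of both genes was 31.69 to 45.98 FPKM in WT and 48.28 to 74.22 FPKM in the cKO-labelled libraries, so the ranges of the sum did not overlap either.

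**Figure D1:**
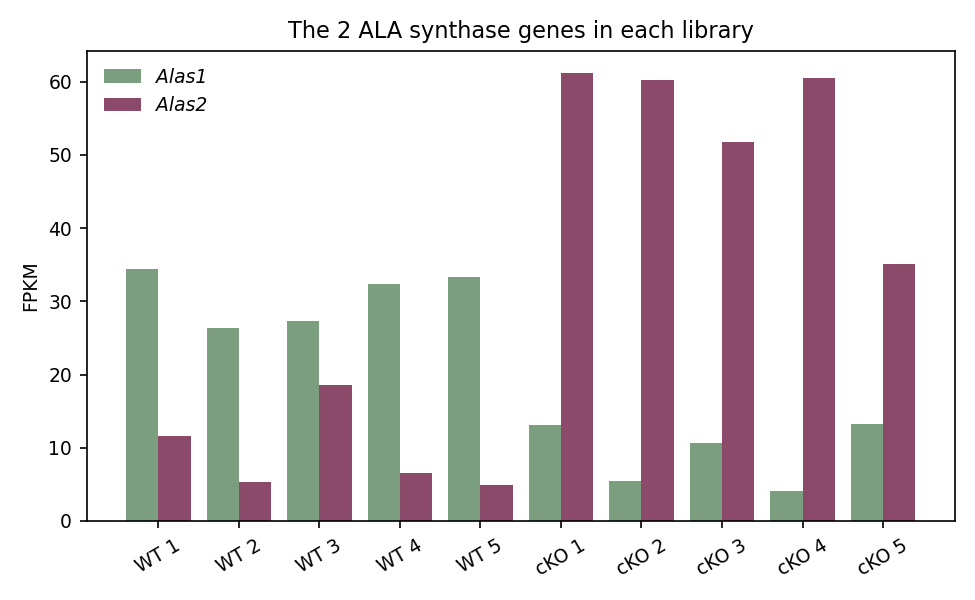
FPKM of Alas1 (green bars) and Alas2 (purple bars) in each of the 10 libraries, on a linear axis from 0. The Alas1 bar is taller in the 5 WT libraries, and the Alas2 bar is taller in the 5 labelled cKO.

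The cytosolic steps changed less. Alad, which condenses ALA into porphobilinogen (ENSMUSG00000028393; chromosome 4 from 62423283 to 62438587), was at 56.18, 66.49, 94.52, 57.7 and 49.93 FPKM in WT and at 122.85, 106.08, 87.45, 115.12 and 84.03 FPKM in the cKO-labelled libraries. WT 3 lay within the range of the cKO-labelled libraries, and the other 4 WT libraries lay below it. The log2 fold change was 0.69 (SE 0.170, adjusted p = 0.00699, limma), which passed on adjusted p but not the 2-fold limit. Uros, which closes the porphyrin ring (ENSMUSG00000030979; chromosome 7 from 133285987 to 133311801), was at 15.14, 16.96, 20.86, 12.67 and 11.45 FPKM in WT and at 14.43, 21.77, 19.9, 18.41 and 24.05 FPKM in the cKO-labelled libraries. The groups overlapped, with 3 WT libraries inside the other range. Uros was the only gene of the 9 that did not pass on adjusted p (log2 fold change 0.36, 95% interval -0.02 to 0.75, adjusted p = 0.115, limma), and this interval does not exclude a change of the size of Alad's. Urod, which removes carboxyl groups from the ring's side chains (ENSMUSG00000028684; chromosome 4 from 116844840 to 116851610), was at 44.62 to 59.52 FPKM in WT (median 48.74) and at 53.67 to 99.98 FPKM (median 63.13) in the cKO-labelled libraries. Library cKO 1 was the highest at 99.98 FPKM, and cKO 3 lay below WT 3. Its log2 fold change was 0.46 (SE 0.151, adjusted p = 0.0285, limma).

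Of the enzymes that finish the pathway in mitochondria, Cpox and Fech passed both limits and Ppox passed on adjusted p alone, and none of the 3 overlapped between groups. Cpox, which makes protoporphyrinogen (ENSMUSG00000022742; chromosome 16 from 58490414 to 58537999), was at 54.62, 70.21, 106.01, 60.03 and 51.13 FPKM in WT and at 132.44, 173.93, 144.12, 188.5 and 178.71 FPKM in the cKO-labelled libraries. The mean went from 68.4 ± 22.2 to 164 ± 24.0 FPKM (SD, 5 libraries each), and the log2 fold change was 1.30 (SE 0.186, adjusted p = 3.32e-04, limma), a 2.46-fold rise. Cpox had the highest mean FPKM of the 9 genes in both groups. Library cKO 1, the highest of its label for Alas2, Alad, Urod, Ppox, Fech and Slc25a38, was the lowest for Cpox and for Uros.

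Ppox, which oxidises protoporphyrinogen to protoporphyrin (ENSMUSG00000062729; chromosome 1 from 171100969 to 171109385), was at 25.32, 18.69, 24.32, 16.99 and 13.94 FPKM in WT and at 35.39, 32.32, 29.18, 35.16 and 26.29 FPKM in the cKO-labelled libraries. The gap between the groups was narrow, from WT 1 at 25.32 to cKO 5 at 26.29 FPKM, and the log2 fold change was 0.70 (SE 0.161, adjusted p = 0.00487, limma). Fech, ferrochelatase, which inserts iron to complete heme (ENSMUSG00000024588; chromosome 18 from 64585985 to 64623322), was at 15.16, 12.75, 19.24, 12.95 and 12 FPKM in WT and at 48.13, 32.35, 24.44, 36.68 and 25.81 FPKM in the cKO-labelled libraries. Its mean went from 14.4 ± 2.94 to 33.5 ± 9.57 FPKM (SD, 5 libraries each), and the log2 fold change was 1.19 (SE 0.191, adjusted p = 6.03e-04, limma), a 2.28-fold rise. Slc25a38, a carrier of the mitochondrial inner membrane needed for glycine import (ENSMUSG00000032519; chromosome 9 from 119939387 to 119955157), was at 23.14, 24.06, 33.37, 24.79 and 20.14 FPKM in WT and at 38.9, 34.2, 29.08, 38.08 and 28.68 FPKM in the cKO-labelled libraries. WT 3 was above cKO 3 and cKO 5, and the log2 fold change was 0.44 (SE 0.137, adjusted p = 0.0231, limma).

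**Figure D2:**
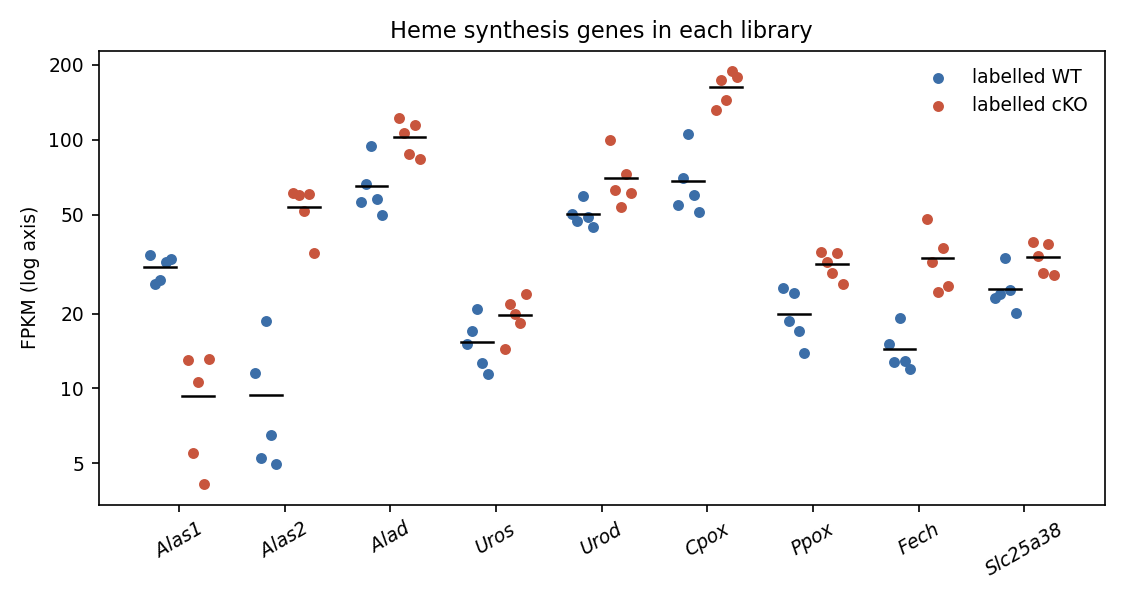
FPKM (log axis) of the 9 genes in pathway order, with Slc25a38 last, 1 point per library in blue for WT and red for cKO as labelled and a bar at each group mean. For Alas1 all 5 red points lie below the blue ones, for Alas2, Cpox, Ppox and Fech all 5 lie above, and for the other 4 genes the groups overlap.

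Across the 9 genes, 3 were called higher in the cKO-labelled libraries (Alas2, Cpox and Fech) and 1 lower (Alas1), a call needing an adjusted p below 0.05 together with at least a 2-fold difference. By the same rule 4.60% of all genes tested were called higher, 16.8% lower and 21.4% either way (862 higher and 3153 lower, or 1482 and 2342 with quantile normalization). On adjusted p alone, 7 of the 9 were higher and 1 lower, against 16.7%, 28.3% and, for either direction, 45.0% of all genes tested. The 4 genes that lay above WT in all 5 libraries compare with 10.6% of genes tested, and the 1 that lay below with 21.6%. The median log2 fold change of the 9 genes was 0.69, and that of all genes tested was -0.11. The calls on the 9 genes with both limits held in each of the 20 other fits, but the smaller rises were less stable. With Xist above 1 FPKM as a covariate, Ppox (adjusted p = 0.0799), Urod (0.101) and Slc25a38 (0.0662) no longer passed on adjusted p in limma. Urod also did not pass without WT 1, 2, 4 or 5 or without cKO 4, nor with quantile normalization (adjusted p = 0.0693), and Slc25a38 did not without WT 1, WT 5 or cKO 4. Uros passed without WT 3 (adjusted p = 0.0340, limma), without cKO 1 (0.0374) and with median-ratio scaling (0.0455).

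**Figure D3:**
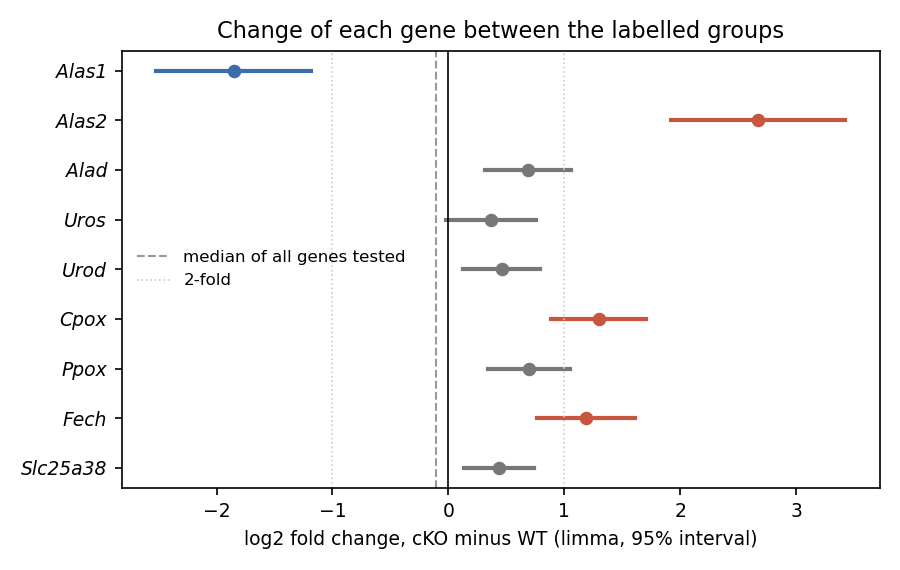
Log2 fold change of each gene, cKO minus WT as labelled, with 95% intervals from limma, in red where called higher, blue where called lower and grey where not called. Alas1 at -1.85 and Alas2 at 2.67 stand at opposite ends, the interval of Uros reaches below 0, and the dashed line marks the median of all genes tested at -0.11.

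Ordered by fold change, the genes ran from Alas2 through Cpox, Fech, Ppox, Alad, Urod, Slc25a38 and Uros to Alas1. Each gene was compared with the next by the exact permutation test on their within-library log2 difference, adjusted over 8 pairs. The pairs and the sign of each difference were set by the same values that were tested. These p-values therefore describe the data and are no independent support for a difference. Alas2 rose by 1.37 more than Cpox on the log2 scale (adjusted p = 0.0423, exact test). Fech rose by 0.49 more than Ppox (adjusted p = 0.0423, exact test), and Alas1 and Uros differed by 2.22 (adjusted p = 0.0423, exact test). The other 5 neighbouring pairs differed by 0.01 to 0.23 and did not pass (adjusted p from 0.222 to 0.968, exact test). The 3 differences did not pass without any 1 of WT 2, WT 3, WT 4, WT 5, cKO 1, cKO 2, cKO 4 or cKO 5 (adjusted p from 0.0635 to 0.0847, exact test), nor did that of Alas2 and Cpox without cKO 3, and that of Ppox and Alad passed without WT 1 (adjusted p = 0.0476, exact test). In order of mean FPKM, WT ran from Cpox and Alad through Urod, Alas1, Slc25a38, Ppox, Uros and Fech to Alas2. Such an order also depends on the gene lengths used, and in it only Urod and Alas1 had ranges that did not overlap. In the cKO-labelled libraries, Alas2 moved from the last to the fourth place and Alas1 from the fourth to the last. There the ranges of Cpox and Alad, of Ppox and Uros, and of Uros and Alas1 did not overlap.

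Several of these genes share sequence with an overlapping gene on the opposite strand, and the strand setting of the counting is not given in the sources used here. The exons of Urod overlap those of Zswim5 over 3440 bp and those of Ppox overlap B4galt3 over 3277 bp. Alas2 overlaps Apex2 over 311 bp. Of these partners, Zswim5 was at 0.03 to 0.23 FPKM, B4galt3 at 3.31 to 4.61 FPKM and Apex2 at 1.44 to 2 FPKM over all libraries, and none of the 3 passed on adjusted p. Cpox overlaps Gpr15 over 204 bp, which was at 0 to 1.11 FPKM and lower in the cKO-labelled libraries (adjusted p = 6.05e-04, limma). Uros overlaps Bccip over 4 bp, and Bccip was at 47.6 to 73.85 FPKM and higher in the cKO-labelled libraries (adjusted p = 0.0234, limma). Alas1 overlaps the noncoding RNA gene 4930500F10Rik over 2590 bp, which was at 0 to 0.2 FPKM over all libraries. Ppox also overlaps the noncoding Gm57119 over 1041 bp, and Alad overlaps the noncoding Gm69513 over 556 bp. The levels of Gm57119 and Gm69513 are not given here.

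Erythroid markers were higher in the same libraries as Alas2, Cpox and Fech. Of 17 marker genes tested, 9 were called higher and 0 lower in the cKO-labelled libraries, 16 were higher on adjusted p alone, and the median log2 fold change was 1.01. Their summed level was 1786 to 3083 FPKM in WT and 4844 to 8077 FPKM in the cKO-labelled libraries. Car1, an erythroid carbonic anhydrase and the highest of them, went from 695 ± 120 to 2573 ± 868 FPKM (SD, n = 5 each). Each heme synthesis gene was therefore also expressed as its log2 value minus the mean log2 of these markers in the same library, as a description with no test. On that scale Alas2 was still higher in the cKO-labelled libraries, at -1.42 ± 0.196 against -2.92 ± 0.478 in WT (SD, n = 5 each), and the groups did not overlap. Cpox differed by 0.12 and Fech by 0.01, with overlapping groups in both cases. The other 6 genes lay lower against the markers in all 5 libraries labelled cKO, by 0.49 for Alad, 0.48 for Ppox, 0.71 for Urod, 0.74 for Slc25a38, 0.81 for Uros and 3.02 for Alas1. With a library left out, the difference of Cpox was between 0.023 without cKO 5 and 0.26 without cKO 1. With the globins left out of the markers, an alternative chosen after seeing the data, Alas2 was 1.67, Cpox 0.30 and Fech 0.19 higher, and Alad was 0.31, Ppox 0.30 and Slc25a38 0.56 lower. The part of the number of erythroid cells in these values was not tested.

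**Figure D4:**
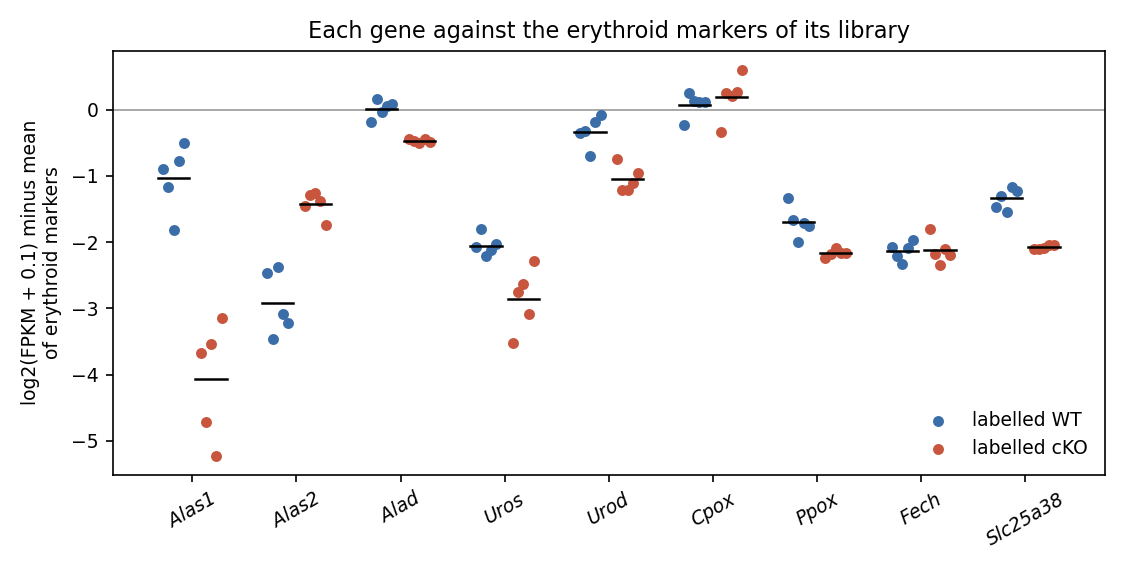
Log2(FPKM + 0.1) of each gene minus the mean over the 17 erythroid markers of the same library, 1 point per library and a bar at each group mean. Alas2 alone lies higher in all 5 libraries labelled cKO, Cpox and Fech overlap, and the other 6 genes lie lower.

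The genes with the most similar profiles were listed for each isozyme. Likeness was measured as the root-mean-square difference of mean-centred log2 values over the 10 libraries, among 12326 genes that averaged 1 FPKM or more. Both groups enter this measure, so it largely reflects the fold change, and the lists of Alas1 and Alas2 had to differ. Log2 fold changes were 2.37 to 2.90 for the 5 genes closest to Alas2 and -1.96 to -1.73 for the 5 closest to Alas1. For Alas2 the closest was Hbb-bt, a beta-globin gene, at 0.116, followed by Hbb-bs (0.182), Tmod1 (0.274), Gm16124 (0.314) and B230303O12Rik (0.321), against a median of 1.497 over all genes compared. Hbb-bt and Hbb-bs are near copies that can share reads. For Alas1 the closest was Cd63, a tetraspanin of lysosomes and granules, at 0.0882, followed by Jak3 (0.152), Lyst (0.156), Dennd3 (0.173) and Mboat1 (0.173), against a median of 1.06. Cd63 went from 24.6 ± 2.61 to 7.77 ± 3.81 FPKM (SD, 5 libraries each), and Hbb-bt from 72.1 ± 51.5 to 404 ± 84.5 FPKM (SD, n = 5 each).

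A list of heme proteins other than hemoglobin, which also holds Por, a reductase that carries no heme itself, was examined beside Alas1. Of 14 tested, 5 were called as lower and 0 as higher in the cKO-labelled libraries. The 5 were Cybb, Mpo, Epx, Ptgs1 and Tbxas1, which encode enzymes of phagocytes, eosinophils and platelets. Mpo, the neutrophil peroxidase, was at 1136, 1064, 973.8, 1287 and 1346 FPKM across WT 1 to 5 and at 277.3, 51.75, 186.3, 49.43 and 391.9 FPKM in the cKO-labelled libraries. Cybb, the heme-binding subunit of the phagocyte oxidase, was at 23.81 to 40.62 FPKM in WT and at 10.86, 0.75, 5.76, 0.27 and 8.21 FPKM in the cKO-labelled libraries. Libraries cKO 2 and cKO 4 were the lowest for Mpo, for Cybb and for Alas1. Sdhd, a heme-containing mitochondrial subunit and the second highest of the list, was at 133 ± 9.32 and 143 ± 5.997 FPKM (SD, n = 5 each; adjusted p = 0.153, limma). The median of this list was -0.08, and 0.026 with median-ratio scaling.

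Markers of other cell types were called lower in numbers that differed between the lists. The monocyte and dendritic markers had 11 of 12 genes called lower, with a summed level of 911 to 1578 FPKM in WT and 10.3 to 270 FPKM in the cKO-labelled libraries. Of the neutrophil markers, 5 of 12 were called lower, with sums of 2742 to 3728 and 148 to 2608 FPKM, and 7 did not pass. Of these 7, Ltf, Camp, Ngp and Mmp9, named here after their values were seen, had log2 fold changes above 0 (0.56 to 1.43). Library cKO 1 stood far above WT for late granule genes, with Ngp at 317.58 FPKM and S100a9 at 894.75 FPKM against WT maxima of 19.69 and 93.11 FPKM. Library cKO 3 was also above WT for both, at 66.44 and 157.68 FPKM, and cKO 2, cKO 4 and cKO 5 were below both maxima. The median of the neutrophil list was -1.80, and -0.98 without cKO 4. The megakaryocyte markers had 10 of 10 called lower (284.5 to 1282 and 81.5 to 188 FPKM), and the mast cell, basophil and eosinophil markers 8 of 9 (880 to 1971 and 140 to 752 FPKM). The B-lymphoid markers had 4 of 7, the T and NK markers 6 of 10, the stem and early progenitor markers 8 of 10 and the stromal and endothelial markers 7 of 9 called lower, the last with 1 called higher. The marker with the highest mean over all 10 libraries, given in WT and in the cKO-labelled libraries (SD, n = 5 each), was Lyz2, the lysozyme of monocytes, at 694 ± 220 and 47.9 ± 51.5 FPKM, Ppbp, a platelet chemokine, at 398 ± 205 and 44.0 ± 16.6 FPKM, and Prss34, a mast cell and basophil protease, at 622 ± 166 and 117 ± 88.8 FPKM. For the B-lymphoid list it was Dntt (18.8 ± 1.68 and 0.394 ± 0.676 FPKM), for the T and NK list Nkg7 (82.6 ± 9.54 and 15.1 ± 8.63 FPKM) and for the stromal and endothelial list Pecam1 (18.8 ± 1.97 and 2.47 ± 1.72 FPKM), and for neutrophils Mpo. The other genes of the T and NK list had WT means of 0.098 to 2.61 FPKM. Those of the stromal and endothelial list had WT means of 0.058 to 3.47 FPKM. Whether Nkg7 and Pecam1 came from the cells their lists name was not tested. Within the cKO-labelled libraries Pf4, Cd79b, S100a9 and Col1a2 had higher means than Ppbp, Dntt, Mpo and Pecam1. Mpo and Epx stand both among these markers and among the heme proteins above. No marker of any list was at 0 in all 10 libraries. Kit, the highest of the progenitor markers and a receptor of Lin- progenitors, was at 45.9 ± 7.83 FPKM in WT and 25.5 ± 5.57 FPKM in the cKO-labelled libraries (SD, n = 5 each). The part of these cells in the fall of Alas1 was not tested.

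Genes that move heme, porphyrins and iron or act on the enzymes mostly lay above 0. Of 20 tested, 14 passed on adjusted p as higher and 1 as lower, and 4 were called higher with the 2-fold limit. The median log2 fold change was 0.53. The 4 were Abcg2, an exporter that carries porphyrins, Tspo2, an erythroid membrane protein, Pgrmc1, a heme-binding protein that associates with ferrochelatase, and Lonp1, a mitochondrial protease. Abcg2 was at 7.44, 7.57, 9.83, 6.67 and 5.96 FPKM in WT and at 18.7, 21.93, 15.09, 27.18 and 17.81 FPKM in the cKO-labelled libraries (log2 fold change 1.41, adjusted p = 1.40e-04, limma). Tspo2 rose by 1.09 on the log2 scale and its relative Tspo fell by 0.53 (adjusted p = 3.01e-04 and 0.00225, limma). The most abundant gene of the list, Tmem14c, which is needed for porphyrin transport into mitochondria, was at 220 ± 32.01 and 306 ± 62.6 FPKM (SD, n = 5 each; adjusted p = 0.0190, limma).

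Among 14 genes that supply glycine, succinyl-CoA and cofactors, 2 were called higher. Slc6a9, which encodes the glycine transporter GLYT1, was at 1.49, 1.14, 3.2, 1.08 and 1.47 FPKM in WT and at 6.69, 8.93, 8.3, 9.46 and 7.29 FPKM in the cKO-labelled libraries. All 5 libraries labelled cKO were above WT 3, the highest WT library, and the log2 fold change was 2.31 (SE 0.256, adjusted p = 1.06e-04, limma). Shmt2, the mitochondrial enzyme that makes glycine from serine, went from 61.4 ± 10.6 to 140 ± 31.8 FPKM (SD, 5 libraries each), with library cKO 1 lowest of its label at 84.88 FPKM. On adjusted p alone 7 were higher and 2 lower, Shmt1 and Glud1, and the median was 0.21. Dld, a subunit shared by several dehydrogenases, had a log2 fold change of 0.36 (adjusted p = 4.68e-04, limma).

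Ferrochelatase carries an iron-sulfur cluster, and of 15 genes of cluster assembly 11 were higher on adjusted p alone and 1, Iba57, lower. Bola3 passed both limits, from 10.3 ± 1.31 to 23.7 ± 4.001 FPKM (SD, n = 5 each). Hspa9, the mitochondrial chaperone of the pathway, had a log2 fold change of 0.88 (adjusted p = 4.91e-04, limma) and Glrx5, a glutaredoxin, one of 0.83 (adjusted p = 8.19e-04, limma). The median of the list was 0.42. In heme breakdown, Blvrb, a biliverdin and flavin reductase abundant in red cells, was called higher, from 37.0 ± 5.40 to 75.6 ± 11.1 FPKM (SD, n = 5 each). Hmox2, the constitutive heme oxygenase, went from 23.4 ± 1.24 to 14.2 ± 1.82 FPKM and fell by 0.73 on the log2 scale (adjusted p = 1.72e-04, limma). Blvra passed on adjusted p as higher. Hmox1, the other of the 4 genes tested, did not pass (log2 fold change -1.01, adjusted p = 0.121, limma), and the median of the list was -0.19.

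Of 10 tested genes that sense heme or iron, regulate the pathway or convert heme to heme A, none was called with both limits. On adjusted p alone, 1 was higher, Cox10, and 2 were lower, Bach1 and Cox15. Eif2ak1, the heme-regulated kinase of translation, was at 26.3 ± 1.64 and 28.3 ± 5.19 FPKM (SD, n = 5 each; adjusted p = 0.518, limma), and Aco1, which binds iron-responsive elements when iron is low, had a log2 fold change of 0.45 (adjusted p = 0.0800, limma). Of 8 erythroid transcription factors, 6 were higher on adjusted p alone, 1, Nfe2, was lower and none passed the 2-fold limit, with a median of 0.49. Klf1 had a log2 fold change of 0.49 (adjusted p = 0.0245, limma) and Lmo2 of 0.02. Gata1, named here after its values were seen, had one of 0.81 (adjusted p = 3.60e-04, limma).

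**Figure D5:**
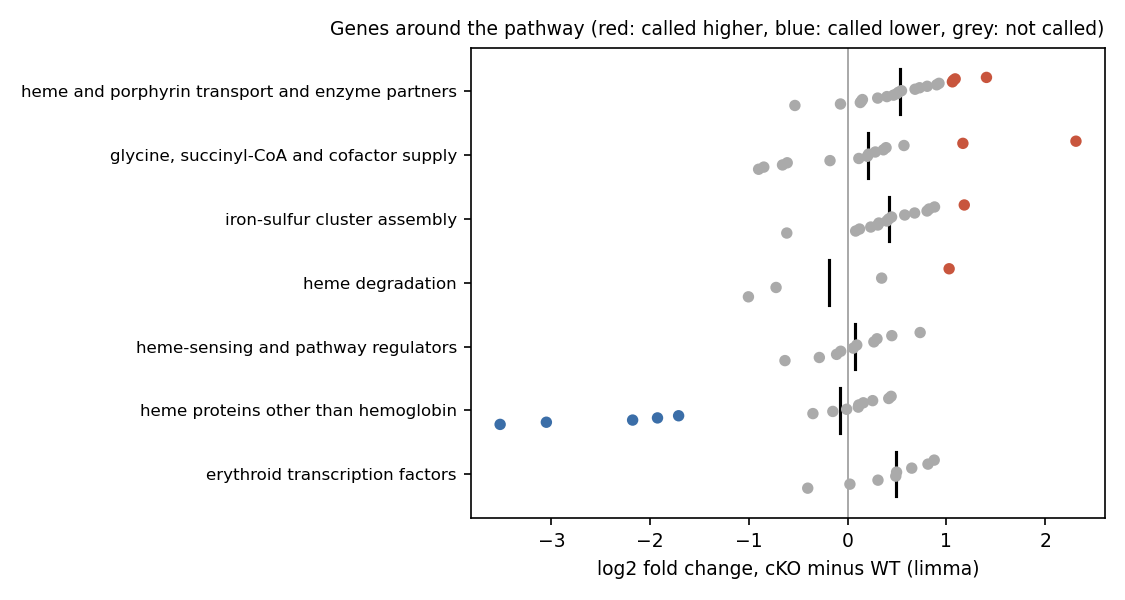
Log2 fold change, cKO minus WT as labelled, of every tested gene in 7 lists around the pathway, 1 point per gene, with a bar at each list's median. The transport, iron-sulfur and transcription factor lists lie mostly above 0, and the 5 blue points of the heme proteins other than hemoglobin lie below -1.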

How the data were processed

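Total RNA of Lin- bone marrow cells was sequenced in 5 WT and 5 cKO libraries. Per the labels and the study's methods, the authors trimmed reads (cutadapt 1.9.1), aligned them to GRCm39 with HISAT2 2.0.1 and, with HTSeq 0.6.1 among the tools named, deposited 1 FPKM value for each gene in each library. The annotation, gene lengths and strand setting are not given in the sources used here. Depth came from single-transcript genes of GENCODE M39 (GRCm39), whose FPKM fall on whole multiples of 1 fragment. Values of up to 20 fragments, whole within 0.2, made up 96.1% to 96.4% in each library. The 9 genes held about 202 to 20614 fragments per library, an approximation, since each has several transcripts.

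FPKM are not counts, so the count test of the study was not run. Instead limma 3.58.1 (R 4.3.3, eBayes with a trend) was fitted on log2(FPKM + 0.1) for the 18742 genes averaging 0.1 FPKM or more, with two-sided p-values adjusted by Benjamini-Hochberg over them. Identifiers of 54749 of 55359 genes are in the annotation. Single values were tested by exact permutation (Python 3.11.15). The fit was tested on simulated data.

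The genes, the lists and the tests were chosen with earlier results of these data known. The comparison with erythroid markers and the alternatives for neighbouring genes were added after the values were seen. Ahsp and Vpreb1 had no row under that symbol. Named genes were the 9 genes, Dhx9 and Xist, in each pathway list the 2 most abundant and the 2 called genes with the largest change, the most abundant gene of each marker list, the 5 closest profiles to each isozyme and, where 5 or fewer genes were counted, those genes. Alternatives were pseudocounts of 0.01 and 1, no filter, a filter at 1 FPKM, 3 scalings, no trend, a replicate block, Xist as a covariate, adjusted p alone and each library left out. The promoter of Fech was not analysed here.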

Additional observations from a re-analysis of the deposited data

Results flagged for a closer look

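Of 52 groups of 5 libraries examined by Dixon's test, each a gene or the mean of a list within 1 label, 1 held a value well apart from the rest, where chance gives 2.6. The mean log2 level of the iron-sulfur cluster assembly genes was 3.94 in library cKO 1 and 4.10 to 4.14 in the other 4 libraries labelled cKO. None of the 9 heme synthesis genes had such a library.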

How the results depend on the processing

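The calls on the 9 heme synthesis genes with both limits, 3 higher and 1 lower, were the same in each of the 20 other fits, and no log2 fold change turned its sign. That of Alas2 was between 2.49 and 2.96, that of Alas1 between -2.01 and -1.60, that of Cpox between 1.201 and 1.47 and that of Fech between 1.05 and 1.30. On adjusted p alone 7 genes were higher, with 5 to 8 over the leave-one-out fits and 4 with the Xist covariate. Over all genes, the counts called higher and lower were 862 and 3153, against 356 and 1486 with a pseudocount of 1, 462 and 1827 with a filter at 1 FPKM, 3138 and 5300 on adjusted p alone and 1482 and 2342 with quantile normalization. Quantile normalization moved the median of all genes tested from -0.11 to 0.08. The Alas2 to Alas1 difference was 4.22 to 4.85 with a library left out. Paired by replicate number it was 4.52 with p = 0.0625 (exact sign-flip test), the smallest that 5 pairs allow. The sample titles give a replicate number and no pairing. Deviations from the group means correlated between same-numbered libraries at -0.0103 to 0.117 and between different-numbered ones at -0.0974 to 0.0667. Of 5 WT libraries, 3 were closest to the library labelled cKO of their number. These values do not settle whether the numbers pair the libraries. The replicate block changed no call of the 9 genes. With a library left out, where the smallest unadjusted p of the exact test is 0.0159, the differences of Alas2 and Cpox, of Fech and Ppox, of Uros and Alas1 and of Ppox and Alad were 1.195 to 1.56, 0.39 to 0.56, 1.98 to 2.48 and -0.052 to 0.15. The median of the list of heme proteins other than hemoglobin was 0.026 with median-ratio scaling. The cause of these changes was not tested.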
